A study of Mus musculus with 9 samples.

Results

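Meis1, Mllt3, Msi2, Mecom, Prdm16, Hlf, Hmga2, Bmi1 and Ctnnal1 are 9 genes tied to the self-renewal of blood stem cells, taken from the 21887 protein-coding genes of the RefSeq table of GRCm38.p6, the assembly of mm10. Each gene was read as its mm10 span with 5 kb of flank on either side. H3K27me3, trimethylation of lysine 27 on histone H3, was mapped by chromatin immunoprecipitation sequencing in 8 libraries of mouse bone marrow cells depleted of mature lineages and enriched for c-Kit, a fraction that holds blood stem and progenitor cells. A further library of input chromatin was sequenced, and no interval list of it was analysed here. There were 2 libraries in each of 4 groups. RH MET cells carried the Dnmt3afl-R878H/+ allele with the Mx1-cre transgene and came from mice given metformin, a diabetes drug that acts on mitochondrial respiration. RH VEH cells had the same alleles and came from mice given vehicle. WT MET cells were Dnmt3a+/+ with Mx1-cre and came from mice given metformin, and WT VEH cells were Dnmt3a+/+ with Mx1-cre and came from mice given vehicle. All groups shared the C57BL/6 background, the Mx1-cre transgene, female transplanted mice as the source, and a treatment lasting 1 month. R878H is the mouse form of a change in the DNA methyltransferase Dnmt3a that recurs in human clonal haematopoiesis and leukaemia, and Mx1-cre drives Cre recombinase from an interferon-inducible promoter, in blood cells among others. The induction of Cre, the share of cells that had recombined, the origin of the transplanted marrow and whether 2 libraries of a group came from separate animals were not given in the sources used here.

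The 9 genes were chosen from the interval calls, the percent covered and the summit heights of these same libraries. Those values are therefore given as descriptions, with the mean ± SD of 2 libraries where useful, and no test was made on them. An interval is a stretch that the authors' caller marked in 1 library, and a gene counts as called wherever 1 bp or more of its span or flanks lies in an interval. Percent covered is the share of the span with flanks that lies in intervals. Summit height is a whole-number score that the authors deposited for each interval without a unit. A missing interval says only that the caller marked nothing there, and a library can carry the mark below that limit. In a bulk sample, a lower share of cells with the mark and less mark in each cell cannot be told apart.

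H3K27me3 is laid down by Polycomb repressive complex 2, typically over CpG-rich start regions of genes that are silent or poised, and it is read by Polycomb repressive complex 1, which helps to keep those genes off. Genes that are active in stem cells and shut in their progeny, or active in a fetal stage and shut in the adult, are known targets of this system. The 9 genes work at different levels. Meis1, Mecom, Prdm16 and Hlf encode transcription factors of the stem cell programme, Hmga2 encodes a chromatin-bending protein that supports self-renewal in fetal stem cells, Bmi1 encodes a subunit of Polycomb repressive complex 1, Mllt3 encodes a reader of acylated histones in elongation complexes, Msi2 encodes an RNA-binding protein, and Ctnnal1 encodes a relative of alpha-catenin that is used as a stem cell marker in reporter mice.

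The libraries differed in size. They held 16879 and 15257 intervals in RH MET libraries, 11620 and 13339 in RH VEH libraries, 16572 and 16694 in WT MET libraries, and 12009 and 16259 in WT VEH libraries. The length covered was between 80.0 Mb in RH VEH 1 and 186 Mb in WT MET 2, and the median summit height was between 12 in RH VEH 1 and 17 in WT MET 2. The number of reads behind each library is unknown, so no counting error can be attached to a call. RH VEH 1 stood apart with the fewest intervals, the shortest length covered and the lowest median height. Of 9 marker genes of the labelled cells, Kit, Cd34, Ptprc, Gata2, Myb, Lmo2, Spi1, Runx1 and Tal1, between 3 and 6 were called per library, with Ptprc and Lmo2 called in none and Gata2 and Tal1 in all 8. Silent loci of other lineages were marked throughout: 6 of 8 endothelial and stromal genes and 3 of 4 mature lymphoid genes were called in every library. For mast cell and basophil genes it was 1 of 6 in every library, for mature myeloid genes 0 or 1 of 4, and for erythroid genes 1 or 2 of 3.

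The start regions of 5 genes are shown for their range of CpG density, picked after their values were seen, and CpG density did not sort them by their calls. The start of Mllt3 is CpG-rich and lay in an interval in RH MET 1 alone, and that of Msi2 is CpG-rich and lay in no interval, since the interval called at Msi2 lies deep inside the gene. The start of Hlf is also CpG-rich and was marked in all 8 libraries, as were both starts of Mecom and the start of Hmga2, which hold fewer CpG. Each line gives the 250 bases before a RefSeq start (GRCm38.p6), 5′ to 3′ on the gene's own strand, which is the minus strand for all 5, and capitals mark CpG dinucleotides. Start entries were found for 9 of 9 genes. The Mllt3 stretch is chr4:88033408-88033657, that of Msi2 is chr11:88718278-88718527, those of Mecom are chr3:30509760-30510009 for the first start and chr3:30013205-30013454 for the internal start, that of Hlf is chr11:90390918-90391167, and that of Hmga2 is chr10:120476470-120476719.
Mllt3: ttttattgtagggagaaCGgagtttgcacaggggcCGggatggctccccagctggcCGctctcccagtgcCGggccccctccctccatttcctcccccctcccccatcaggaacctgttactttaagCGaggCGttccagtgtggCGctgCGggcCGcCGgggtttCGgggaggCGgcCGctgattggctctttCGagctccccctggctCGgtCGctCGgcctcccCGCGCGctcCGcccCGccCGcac
Msi2: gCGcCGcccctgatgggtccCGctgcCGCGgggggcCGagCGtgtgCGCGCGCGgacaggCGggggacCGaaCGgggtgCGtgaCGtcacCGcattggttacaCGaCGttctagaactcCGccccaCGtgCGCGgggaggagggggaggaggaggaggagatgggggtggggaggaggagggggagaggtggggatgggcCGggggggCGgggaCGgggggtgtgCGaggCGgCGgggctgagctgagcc
Hlf: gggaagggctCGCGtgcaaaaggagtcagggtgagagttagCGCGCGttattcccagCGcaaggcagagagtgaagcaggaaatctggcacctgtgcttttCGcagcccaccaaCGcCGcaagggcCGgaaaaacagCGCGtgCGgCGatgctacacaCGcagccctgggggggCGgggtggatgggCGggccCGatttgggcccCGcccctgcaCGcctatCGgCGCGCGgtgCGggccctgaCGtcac
Mecom first start: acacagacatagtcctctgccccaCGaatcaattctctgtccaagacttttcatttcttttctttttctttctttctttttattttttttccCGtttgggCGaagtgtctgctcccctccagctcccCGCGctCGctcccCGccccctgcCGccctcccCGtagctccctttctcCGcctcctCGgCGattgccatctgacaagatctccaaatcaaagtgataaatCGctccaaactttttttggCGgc
Mecom internal start: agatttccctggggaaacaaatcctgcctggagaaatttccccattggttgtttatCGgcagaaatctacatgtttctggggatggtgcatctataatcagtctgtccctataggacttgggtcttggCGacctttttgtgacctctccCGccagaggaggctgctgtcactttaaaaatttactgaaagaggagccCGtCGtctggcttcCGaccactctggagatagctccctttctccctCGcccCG
Hmga2: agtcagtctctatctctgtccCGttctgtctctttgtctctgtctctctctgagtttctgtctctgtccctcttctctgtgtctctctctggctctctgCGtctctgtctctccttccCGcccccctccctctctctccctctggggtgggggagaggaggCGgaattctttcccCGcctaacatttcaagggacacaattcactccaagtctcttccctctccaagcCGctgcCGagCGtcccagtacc
These stretches hold 23 CpG at Mllt3, 29 at Msi2, 26 at Hlf, 14 at the first start and 8 at the internal start of Mecom, and 8 at Hmga2.

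The genes are mostly long. Their spans are chr11:18880428-19019651 for Meis1 (139 kb), chr4:87769925-88033407 for Mllt3 (263 kb), chr11:88339382-88718306 for Msi2 (379 kb), chr3:29951296-30509759 for Mecom (558 kb), chr4:154316122-154637360 for Prdm16 (321 kb), chr11:90336535-90390917 for Hlf (54.4 kb), chr10:120361268-120476469 for Hmga2 (115 kb), chr2:18677018-18686629 for Bmi1 (9.61 kb) and chr4:56810935-56865375 for Ctnnal1 (54.4 kb). Only Bmi1 lies on the plus strand. Their median span was 139 kb against 17.2 kb over all protein-coding genes, and 6 of 9 reached 100 kb against 11.1% of all.

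Meis1, Mecom, Prdm16, Hlf, Hmga2 and Bmi1 were called in all 8 libraries. This is 6 of 9 genes, against 29.9% of all protein-coding genes and 55.6% of the 2429 protein-coding genes of 100 kb or more. Ctnnal1 was called in every library except WT VEH 1. Mllt3 and Msi2 were called in RH MET 1 and RH MET 2 and in no other library. No member was without an interval in all 8 libraries, a state shared by 52.6% of protein-coding genes. Per library, 9 and 9 members were called in RH MET, 7 and 7 in RH VEH, 7 and 7 in WT MET, and 6 and 7 in WT VEH. Over all protein-coding genes the shares called were 39.6% and 37.9% in RH MET, 33.1% and 37.3% in RH VEH, 40.3% and 41.3% in WT MET, and 36.8% and 39.3% in WT VEH, so that there the WT MET libraries were highest.

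**Figure D1:**
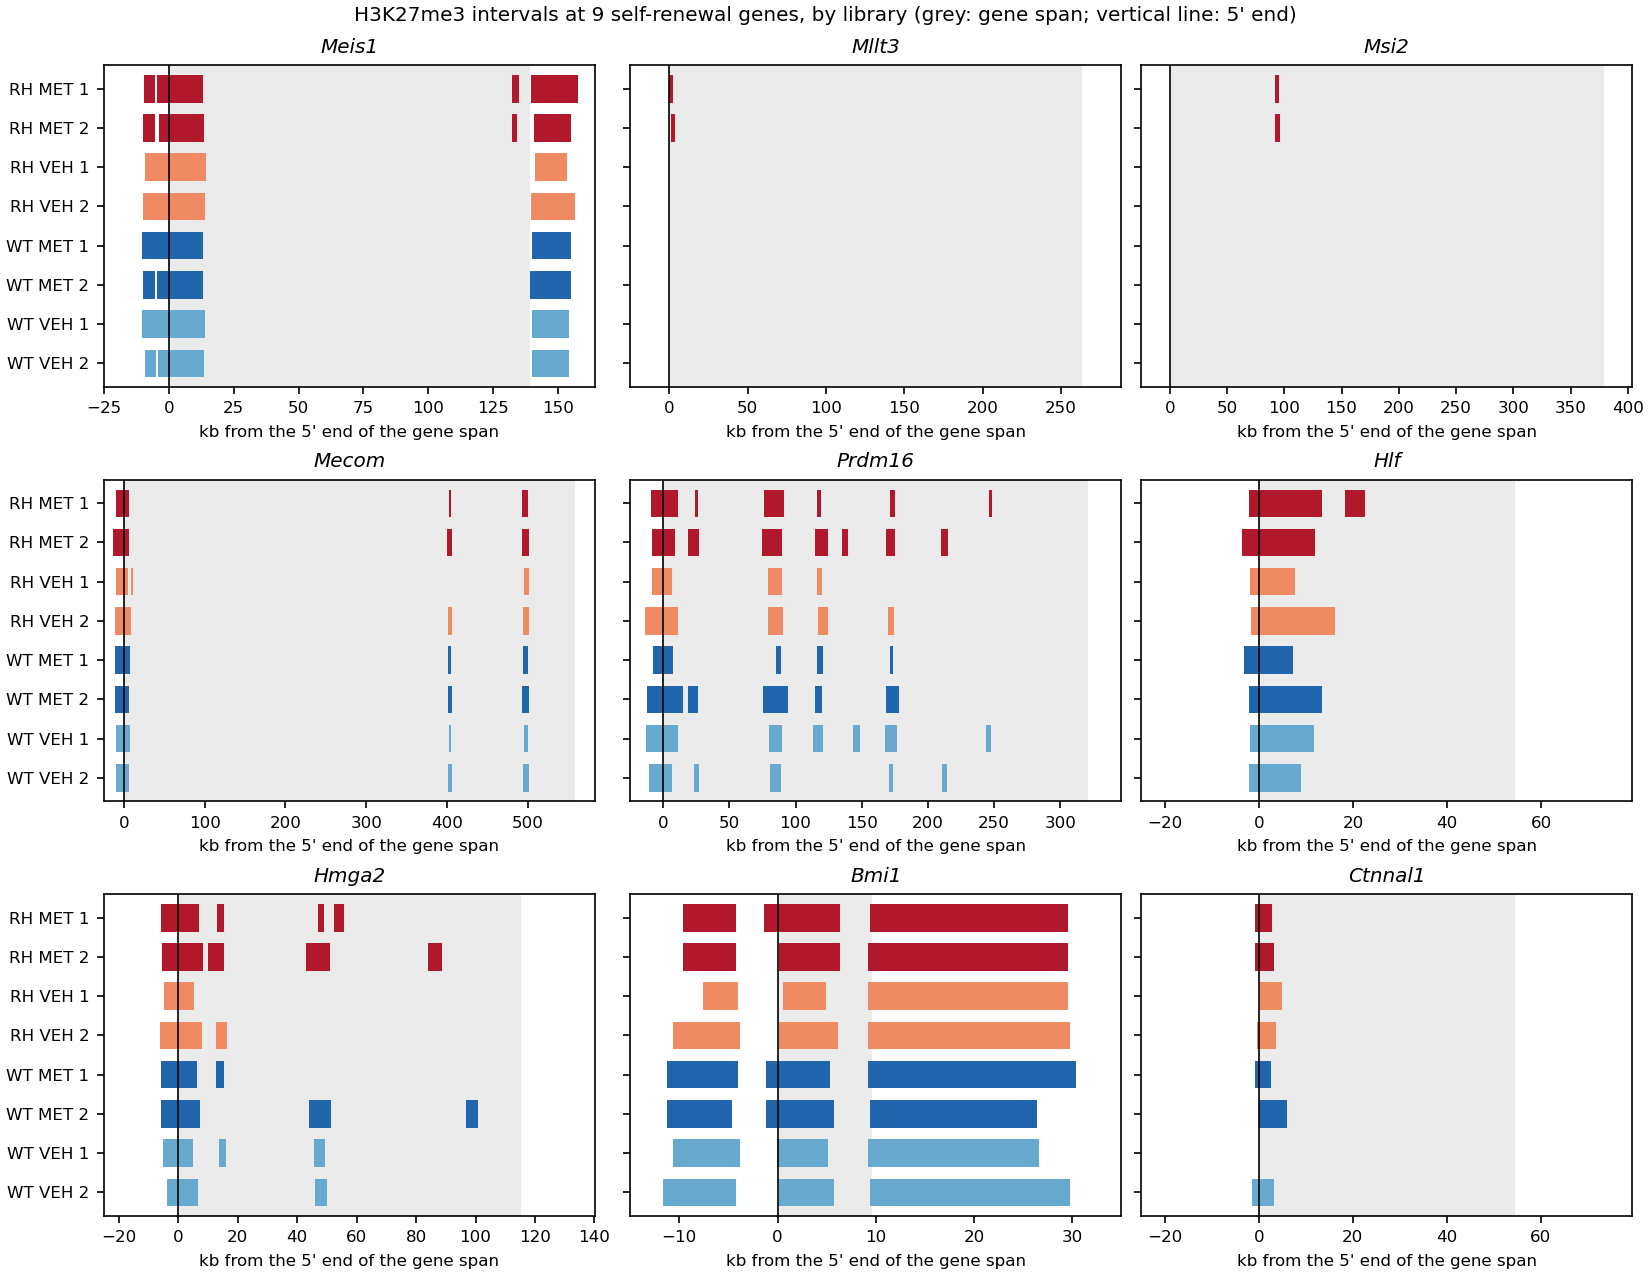
Interval positions at the 9 genes in each library, with the distance from the 5′ end of the gene span in kb on the x axis and 1 row per library, RH MET at the top, then RH VEH, WT MET and WT VEH. Intervals over the 5′ end recur in every row for Meis1, Mecom, Prdm16, Hlf and Hmga2, while Mllt3 and Msi2 have bars only in both RH MET rows.

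Meis1, a homeobox factor that binds DNA with Hox proteins, carried the mark over its start and beyond its 3′ end. Its span with flanks was covered for 16.9% and 15.4% in RH MET libraries, 15.0% and 16.0% in RH VEH, 15.2% and 15.3% in WT MET, and 15.7% and 14.8% in WT VEH. The groups lay within about a percentage point of each other, at 16.1% ± 1.04 in RH MET, 15.5% ± 0.663 in RH VEH, 15.2% ± 0.0706 in WT MET and 15.2% ± 0.663 in WT VEH (SD, n = 2 each). Its marked stretch over the start, chr11:19005201-19030000, reached from inside the gene to beyond the upstream flank. In RH MET 1, RH MET 2, WT MET 2 and WT VEH 2 this stretch was split into 2 intervals, and in the other 4 libraries it was a single interval. The split was thus in both RH MET libraries and neither RH VEH library, while the WT MET libraries differed from each other, as did the WT VEH libraries. How often other stretches were split in this way was not counted. A second stretch in all 8 libraries, chr11:18861801-18880400, lay just beyond the 3′ end of Meis1 and overlapped the noncoding gene 8430419K02Rik, so it entered the count through the flank. A further stretch of 2.8 kb, chr11:18884601-18887400, was called in both RH MET libraries and no other, with heights of 13 and 14, below the median height of 15 in those libraries.

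Mecom has 2 RefSeq starts, 496.6 kb apart. As background, the first start gives the long form with a PR domain (Mds1-Evi1) and the internal start gives the shorter zinc-finger form known as Evi1. Both starts were marked in all 8 libraries. At the first start, chr3:30501601-30524000, summit heights were 65 and 57 in RH MET, 31 and 41 in RH VEH, 64 and 73 in WT MET, and 47 and 67 in WT VEH. At the internal start, chr3:30007801-30016200, they were 33 and 37 in RH MET, 16 and 28 in RH VEH, 38 and 52 in WT MET, and 30 and 39 in WT VEH. The internal start was lower than the first in every library. Another stretch, centred 403 kb from the 5′ end at chr3:30103001-30109800, was called in 7 libraries with heights of 13 to 24 and was missing from RH VEH 1. RH VEH 1 alone had a 1.6 kb interval at chr3:30499201-30500800, with a height of 8. Cover of this long span was low: 3.79% and 4.53% in RH MET, 2.98% and 4.43% in RH VEH, 3.79% and 4.32% in WT MET, and 3.41% and 4.36% in WT VEH. All 4 groups overlapped.

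Prdm16, a zinc-finger factor with a PR domain and a close relative of Mecom, was marked at the start and along the gene body. The start stretch, chr4:154622401-154650800, had heights of 83 and 74 in RH MET, 40 and 63 in RH VEH, 77 and 90 in WT MET, and 58 and 78 in WT VEH, and lay between the 94.7 and 97.1 height percentiles of its own library. Further in, 8 other stretches between 22.6 and 246 kb from the 5′ end were called in 1 to 8 libraries, and their heights never passed 28. Of the 9 stretches in all, 6 and 7 were called in RH MET, 3 and 4 in RH VEH, 4 and 5 in WT MET, and 6 and 5 in WT VEH. RH MET and RH VEH did not overlap in this count, whereas RH MET 1 and WT VEH 1 had the same number. Over all 18556 regions merged from the 8 libraries, RH MET and RH VEH did not overlap either. There 63.5% and 59.4% were called in RH MET, against 43.2% and 56.0% in RH VEH. Cover was 12.8% and 19.4% in RH MET, 7.78% and 12.1% in RH VEH, 7.05% and 18.5% in WT MET, and 15.8% and 9.04% in WT VEH. The 2 WT MET libraries differed by 2.63-fold, and in cover every pair of groups overlapped except RH MET and RH VEH. Cover was likewise higher in both RH MET libraries than in both RH VEH libraries at 13.6% of genes with an interval in these libraries.

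Hlf, a basic leucine zipper factor largely restricted to stem cells within the blood system, carried 1 broad stretch over its start, chr11:90374801-90394400, in all 8 libraries. Its heights were 54 and 47 in RH MET, 21 and 41 in RH VEH, 49 and 57 in WT MET, and 46 and 39 in WT VEH. A small interval about 20 kb into the gene, chr11:90368401-90372600, was called in RH MET 1 alone with a height of 13. Cover was 30.8% and 23.9% in RH MET, 14.9% and 27.6% in RH VEH, 16.2% and 24.2% in WT MET, and 21.1% and 17.1% in WT VEH. RH VEH held both the lowest and, after RH MET 1, the highest cover, so no group stood apart from the others.

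Hmga2 had the highest start among the members in every library except RH VEH 1 and RH VEH 2, where Prdm16 was higher. At chr10:120468201-120482600 the heights were 99 and 76 in RH MET, 36 and 61 in RH VEH, 87 and 109 in WT MET, and 60 and 92 in WT VEH. Inside the gene, 5 weaker stretches lay between 13.1 and 98.9 kb from the 5′ end, with heights of 10 to 23. Of all 6 stretches, 4 and 4 were called in RH MET, 1 and 2 in RH VEH, 2 and 3 in WT MET, and 3 and 2 in WT VEH. Cover was 15.7% and 25.5% in RH MET, 8.15% and 13.2% in RH VEH, 11.1% and 18.7% in WT MET, and 12.7% and 11.7% in WT VEH. Both RH MET libraries lay above both RH VEH libraries, an order found at 13.6% of genes with an interval in these libraries, and they overlapped WT MET. They also lay above both WT VEH libraries, as they did at Mllt3, Msi2, Hlf and Bmi1. The share of all genes with this last order was not counted. The group means were 20.6% ± 6.89 in RH MET, 10.7% ± 3.54 in RH VEH, 14.9% ± 5.42 in WT MET and 12.2% ± 0.717 in WT VEH (SD, n = 2 each).

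Bmi1, the shortest member, was the most covered: 70.4% and 63.3% in RH MET, 55.1% and 64.3% in RH VEH, 66.3% and 64.3% in WT MET, and 60.2% and 59.2% in WT VEH. The stretch at the gene itself, chr2:18675601-18683400, also overlaps Commd3. It had heights of 71 and 56 in RH MET, 34 and 47 in RH VEH, 69 and 88 in WT MET, and 51 and 64 in WT VEH. The summit lay 0.807 to 1.22 kb downstream of the start, inside the gene, in all 8 libraries. The interval reached back over the start window only in RH MET 1, WT MET 1, WT MET 2 and WT VEH 1, and elsewhere it began within the gene. Part of the cover belongs to the neighbours: an upstream stretch at chr2:18665401-18673200 overlaps Commd3 and Gm33355, and a much higher downstream stretch at chr2:18686201-18707400, with heights of 47 to 126, overlaps Spag6 and Gm46725 and has only 0.429 kb inside Bmi1. Each was called in all 8 libraries.

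Ctnnal1 had a single stretch at its start, chr4:56859401-56866800. Its heights were 26 and 29 in RH MET, 15 and 21 in RH VEH, 21 and 19 in WT MET, and 20 in WT VEH 2, with no interval in WT VEH 1. Cover was 5.59% and 6.21% in RH MET, 7.45% and 6.52% in RH VEH, 5.28% and 9.31% in WT MET, and 0% and 7.14% in WT VEH. The RH MET intervals were higher but narrower than those of RH VEH, at 3.6 and 4 kb against 4.8 and 4.2 kb, so that height and cover ordered these groups in opposite ways.

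Mllt3 was marked at its 5′ end in the RH MET libraries only. RH MET 1 had an interval at chr4:88030801-88033800 with a height of 12, which covers the start window, and RH MET 2 had one at chr4:88029801-88032400 with a height of 18, which stops short of it. In their own libraries these heights stood at the 32.0 and 59.4 percentiles, so that 1 was below and 1 above the median of its library. Their summits lay 1.58 and 1.28 kb inside the gene. Cover was 1.10% and 0.951% in RH MET and 0% in the 6 other libraries. The internal start of Mllt3, 227 kb further on, had no interval in any library.

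Msi2 was marked deep inside the gene in the same libraries. RH MET 1 had an interval at chr11:88623001-88626200 with a height of 14, and RH MET 2 had one at chr11:88622201-88626800 with a height of 17, at the 46.3 and 56.7 percentiles of their libraries. The summits, 92.9 kb from the 5′ end in both, were 16 bp apart, and the stretch overlaps the noncoding gene 0610039H22Rik. Cover was 0.823% and 1.18% in RH MET and 0% in the 6 other libraries. The 3 RefSeq starts of Msi2, all within 0.048 kb of each other, were in no interval in any library.

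**Figure D2:**
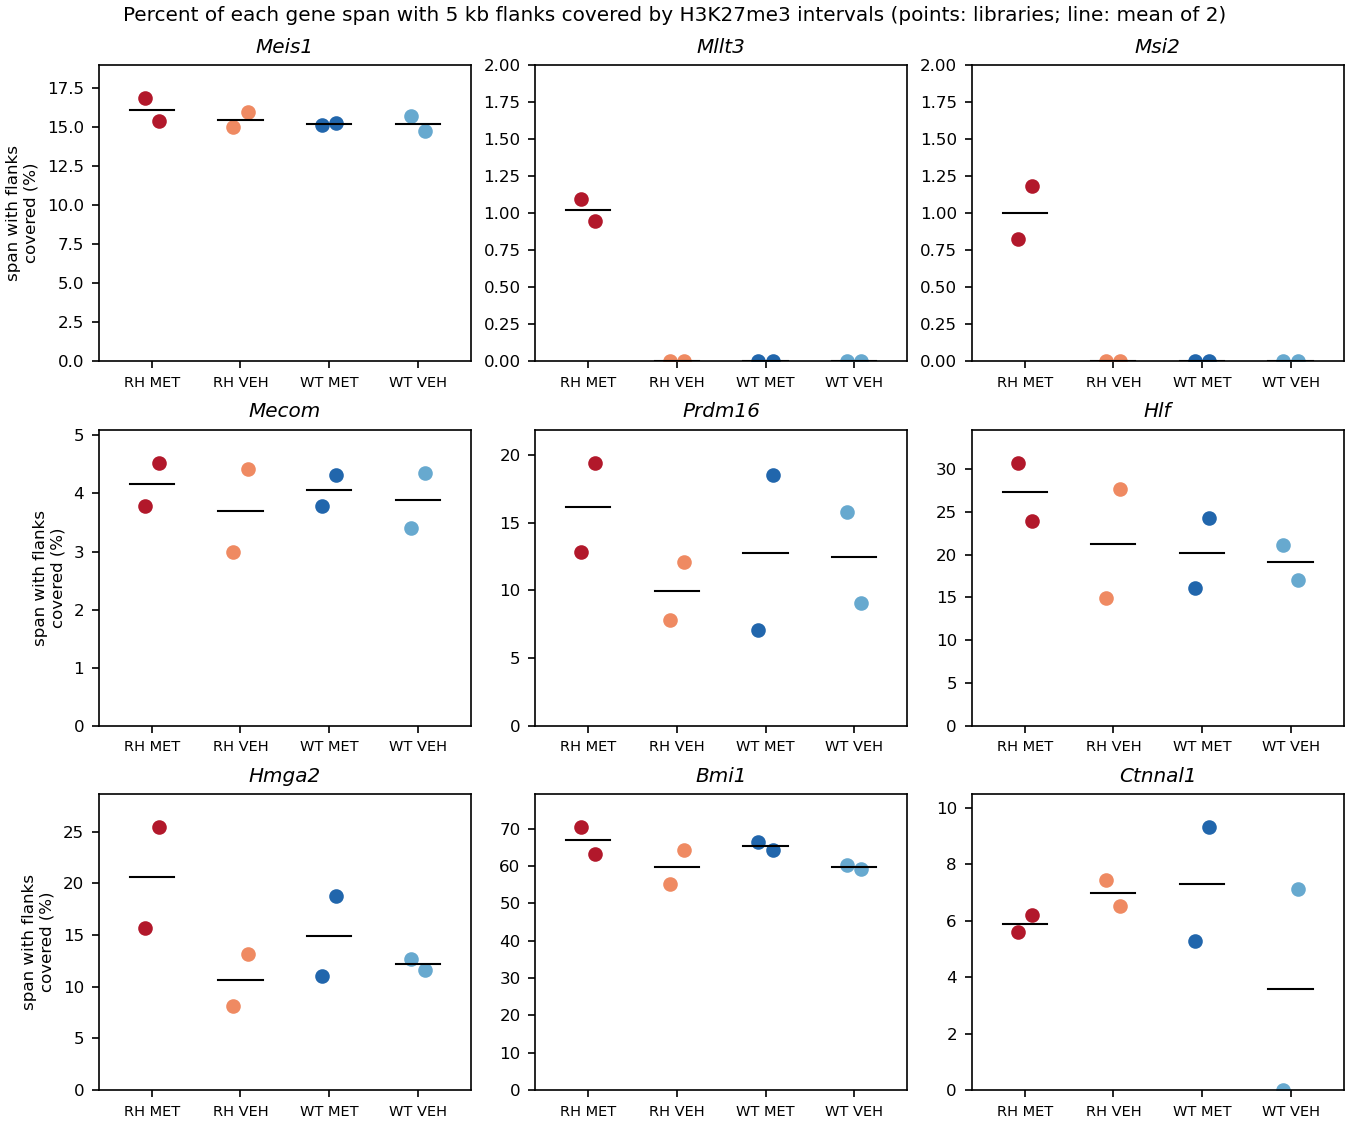
Percent of each gene span with 5 kb flanks that lies in H3K27me3 intervals (y axis, with its own scale for each gene) in the 4 groups, with 1 point per library and a line at the mean of 2. Mllt3 and Msi2 are above 0 only in RH MET, Hmga2 and Prdm16 are higher in RH MET than in RH VEH, and Meis1 lies between 14.8% and 16.9% in every library.

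Metformin against vehicle in R878H cells was the comparison with the most separated members. Mllt3 and Msi2 were called in each RH MET library and in neither RH VEH library, which is 2 of 9 genes. The same held for 1.2% of all protein-coding genes, 2.76% of the 9526 protein-coding genes with an interval in at least 1 of these 4 libraries, and 1.89% of protein-coding genes of 100 kb or more. No member was called in both RH VEH libraries and neither RH MET library, against 0.206% of protein-coding genes. In percent covered, both RH MET libraries lay above both RH VEH libraries at Mllt3, Msi2, Prdm16 and Hmga2, 4 of 9 genes against 13.6% of the genes with an interval in these libraries. The mean differences were 6.22 percentage points at Prdm16 and 9.93 at Hmga2. Without RH MET 2 they were 2.93 and 5.06 points, and without RH MET 1 they were 9.51 and 14.8 points. At Ctnnal1 both RH MET libraries lay below both RH VEH libraries, with a mean difference of -1.09 points, against 4.38% of genes. Since the members were chosen from this contrast among others, nothing is read from these shares. RH VEH libraries held fewer intervals than RH MET libraries, and the part of this in the result was not tested. WT MET libraries also had no interval at Mllt3 or Msi2, and since these genes were chosen from these same calls, nothing is read from this. Without RH VEH 1, the library that stood apart, the count was 2, but leaving out a library cannot lower a count under this rule. That both RH MET libraries were above RH VEH 2 at Prdm16 and Hmga2 follows from the order given above. Neither value tells what part RH VEH 1 had in the result. With intervals of height 15 or more alone, no member was called in both RH MET libraries and neither RH VEH library, and with 11620 intervals per library, taken from the highest down, only Msi2 was.

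R878H against wild type under metformin gave the same pair. Mllt3 and Msi2 were called in each RH MET library and in neither WT MET library, against 0.361% of all protein-coding genes, 0.786% of those with an interval in at least 1 of these libraries and 0.412% of those of 100 kb or more. This comparison and the previous one share the RH MET libraries, so the pair is not a second observation. With intervals of height 15 or more alone the count was 0, and with 11620 intervals per library it was 1, Msi2. No member was called in WT MET libraries only, against 1.03% of genes. Percent covered was higher in both RH MET libraries than in both WT MET libraries at Meis1, Mllt3 and Msi2, against 4.89% of genes, and at no member was it lower, against 29.3% of genes. The difference at Meis1 was 0.921 percentage points. It was -0.687 points with intervals of height 15 or more alone.

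R878H against wild type under vehicle separated no member. Of the 7 members called in these libraries, none had intervals in each RH VEH library while lacking them in WT VEH, against 0.196% of protein-coding genes, and none the other way round, against 1.02%. Nor did percent covered separate any member, with 3% of genes higher in both RH VEH libraries and 19.4% higher in both WT VEH libraries. Without WT VEH 2, Ctnnal1 was called in RH VEH and not in the remaining WT VEH library. The same member and the same library matter in the comparison of metformin with vehicle in wild-type cells: no member was called in WT MET libraries only (1.04% of genes) or in WT VEH libraries only (0.178%), and without WT VEH 2 the first count was 1, through Ctnnal1. In percent covered, Bmi1 was higher in both WT MET libraries, by 5.61 percentage points, against 18.6% of genes, and no member was higher in both WT VEH libraries, against 7.82%. Divided by the cover of all protein-coding spans in each library, the Bmi1 difference was -0.829 points.

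Pooled over treatments, no member was called in all 4 RH libraries and no WT library, against 0.0228% of genes, or in all 4 WT libraries and no RH library, against 0.0731%. Percent covered was higher in every RH library than in every WT library at 0.222% of genes and lower at 3.66%, with no member among either. Pooled over genotypes, no member was called in all 4 MET libraries and no VEH library, against 0.0822% of genes, or in all 4 VEH libraries and no MET library, against 0.00457%. Percent covered was higher in every MET library than in every VEH library at 1.04% of genes and lower at 0.154%, again with no member. The intervals at Mllt3 and Msi2 were called in 1 of the 4 groups only. A call in RH MET 1 and RH MET 2 and in none of the 6 other libraries was made at 31 protein-coding genes, 0.142% of all. The like call for another group was made at 4 genes in RH VEH, 53 in WT MET and 14 in WT VEH. These are 0.0183%, 0.242% and 0.0640% of all, with no member among them.

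Overlapping intervals of the 8 libraries were merged into 18556 regions, all 18556 identical to those the authors deposited, and 30 of them touched a member. Prdm16 had 9 of them, Hmga2 6, Mecom 4, Meis1 and Bmi1 3 each, Hlf 2, and Mllt3, Msi2 and Ctnnal1 1 each. In all, 11 of the 30 were called in all 8 libraries, which is 36.7% against 35.6% of all regions. The 30 regions were called 24 and 24 times in RH MET libraries, 14 and 16 in RH VEH, 16 and 18 in WT MET, and 18 and 17 in WT VEH. Both RH MET libraries were above the 6 others. Since the members were chosen from these same calls, nothing is read from this order, here or under the alternatives below. As shares these are 80% and 80% in RH MET, 46.7% and 53.3% in RH VEH, 53.3% and 60% in WT MET, and 60% and 56.7% in WT VEH. Over all 18556 regions the shares were 63.5% and 59.4% in RH MET, 43.2% and 56.0% in RH VEH, 65.7% and 71.1% in WT MET, and 50.2% and 63.7% in WT VEH, so that there the WT MET libraries were highest. Leaving out the regions of Mllt3 and Msi2, the counts were 22 and 22 in RH MET, 14 and 16 in RH VEH, 16 and 18 in WT MET, and 18 and 17 in WT VEH, out of 28. With intervals of height 15 or more, they were 17 and 19 of 30 in RH MET, 10 and 13 in RH VEH, 14 and 18 in WT MET, and 11 and 14 in WT VEH, and RH MET then overlapped WT MET. Over all regions the shares at that height were 38.5% and 36.9% in RH MET, 21.3% and 30.7% in RH VEH, 41.4% and 47.5% in WT MET, and 29.9% and 38.2% in WT VEH. With 11620 intervals per library they were 20 and 24 in RH MET, 14 and 16 in RH VEH, 16 and 18 in WT MET, and 18 and 16 in WT VEH, and RH MET was again above the others. Over all regions the shares were then 47.9% and 48.2% in RH MET, 43.2% and 49.9% in RH VEH, 49.3% and 52.2% in WT MET, and 48.9% and 48.3% in WT VEH. These alternatives for regions were chosen after seeing the data. Regions called in RH MET 1 and RH MET 2 alone numbered 3 of 30, at Meis1, Mllt3 and Msi2, and 128 of 18556, or 0.690%. For the other groups, such regions numbered 8 in RH VEH (0.0431%), 216 in WT MET (1.16%) and 34 in WT VEH (0.183%). None of these was at a member.

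**Figure D3:**
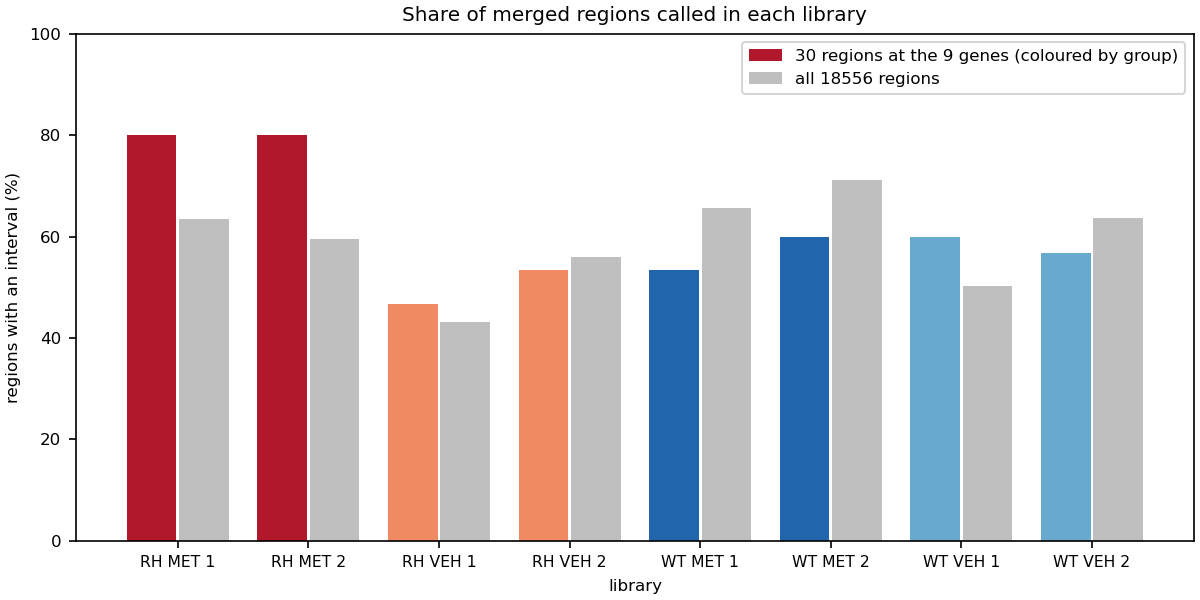
Share of merged regions with an interval in each library (y axis, %), for the 30 regions at the 9 genes (bars coloured by group) and for all 18556 regions (grey), with libraries on the x axis from RH MET to WT VEH. The coloured bars reach 80% in both RH MET libraries and at most 60% in the others, while the grey bars are highest in WT MET. The 9 genes were chosen from these same calls, so nothing is read from the height of the coloured bars.

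Start windows, taken as 250 bases before to 50 bases after each RefSeq start, were in an interval in all 8 libraries for 5 of 9 members, Meis1, Mecom, Prdm16, Hlf and Hmga2, against 19.6% of 17492 protein-coding genes with an entry. Msi2 alone had its start in no interval in any library, against 67.6% of genes. Divided by the median height of its library, and among the starts marked in 7 or 8 libraries, the interval over the start was highest at Hmga2, from 3 in RH VEH 1 to 6.6 in RH MET 1, and at Prdm16, from 3.33 to 5.53 in the same libraries. It was lowest at Ctnnal1, from 1.12 in WT MET 2 to 1.93 in RH MET 2 where an interval was present. Between them lay the first start of Mecom, from 2.58 to 4.47, Hlf, from 1.75 to 3.6, Meis1, from 1.92 to 3.47, and the internal start of Mecom, from 1.33 to 3.06. The Mllt3 start stood at 0.8 in RH MET 1, its only library, and the Bmi1 start at 3.4 to 5.18 in the 4 libraries with an interval there. The ranges over the libraries overlap from each start to the next, but the starts are read in the same libraries and can be compared within each. There Prdm16 was higher than the first start of Mecom in 8 of 8 libraries, Meis1 was higher than the internal start of Mecom in 8 of 8, and that start was higher than Ctnnal1 in the 7 libraries with both. Hmga2 was higher than Prdm16 in 6 of 8, the first start of Mecom was higher than Hlf in 7 and equal to it in 1, and Hlf was higher than Meis1 in 5 of 8.

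RH VEH 1 held the lowest height at all 6 start windows marked in every library, both raw and divided by its own median. It was also the lowest library, on the divided scale, at 76.9% of the 3435 protein-coding genes with such a start, so the members were no exception. RH MET libraries were both higher than both RH VEH libraries at Mecom, Prdm16, Hlf, Hmga2 and Ctnnal1, 5 of the 6 members with a start interval in all 4, in raw heights and in heights divided by the library median. The same order was found at 78.1% of such genes in raw heights and at 68.7% in divided heights. RH VEH libraries were both lower than both WT VEH libraries at Meis1 and Mecom, 2 of 5 members, against 45.4% of genes in raw and 32.2% in divided heights. WT MET libraries were both higher than both WT VEH libraries at Meis1 and Hlf, 2 of 5, against 56.6% and 44.1%. Between RH MET and WT MET, Ctnnal1 was higher in both RH MET libraries, against 2.2% of genes in raw and 7.66% in divided heights, and Meis1 was lower in both, against 39.2% and 26.7%. The heights of Ctnnal1 in question were 26 and 29 in RH MET against 21 and 19 in WT MET. Heights may not be comparable between libraries, since no source used here gives an adjustment for depth.

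**Figure D4:**
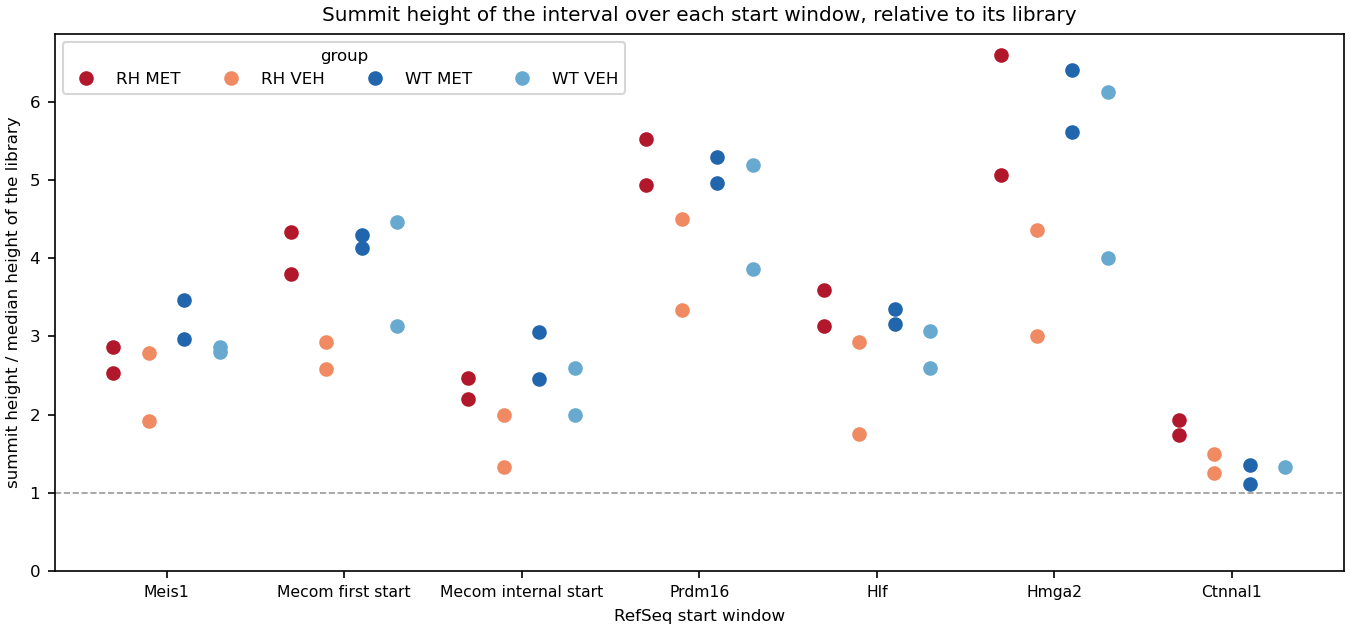
Summit height of the interval over each start window divided by the median summit height of the library (y axis), for start windows marked in 7 or 8 libraries, with 1 point per library, coloured by group, and a dashed line at 1. Hmga2 and Prdm16 reach the highest values, the RH VEH points lie low at most starts, and Ctnnal1 lies nearest to the line.

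CpG content did not order the start windows by how often they were marked. CpG was counted as the letters CG, which read the same on both strands and cannot overlap each other, and 95.4% of the 21263 protein-coding start windows held at least 1, with a median of 13 per window. Msi2, never marked at its start, had the most: 39, 38 and 37 in its 3 overlapping windows, a count reached by 5.79%, 6.47% and 7.29% of windows. Mllt3, marked over its first start in RH MET 1 alone, had 29 there, reached by 17.2% of windows, and 4 at its internal start. Among starts marked in all 8 libraries, Hlf had 30, Prdm16 24, Mecom 19 at the first and 9 at the internal start, Meis1 15 and Hmga2 12, the last a count that 52.8% of windows reach. Bmi1 had 23 and Ctnnal1 24. In the printed stretches the difference can be seen as the density of capitals, dense before Msi2, Mllt3 and Hlf and sparse before Hmga2 and the internal start of Mecom.

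**Figure D5:**
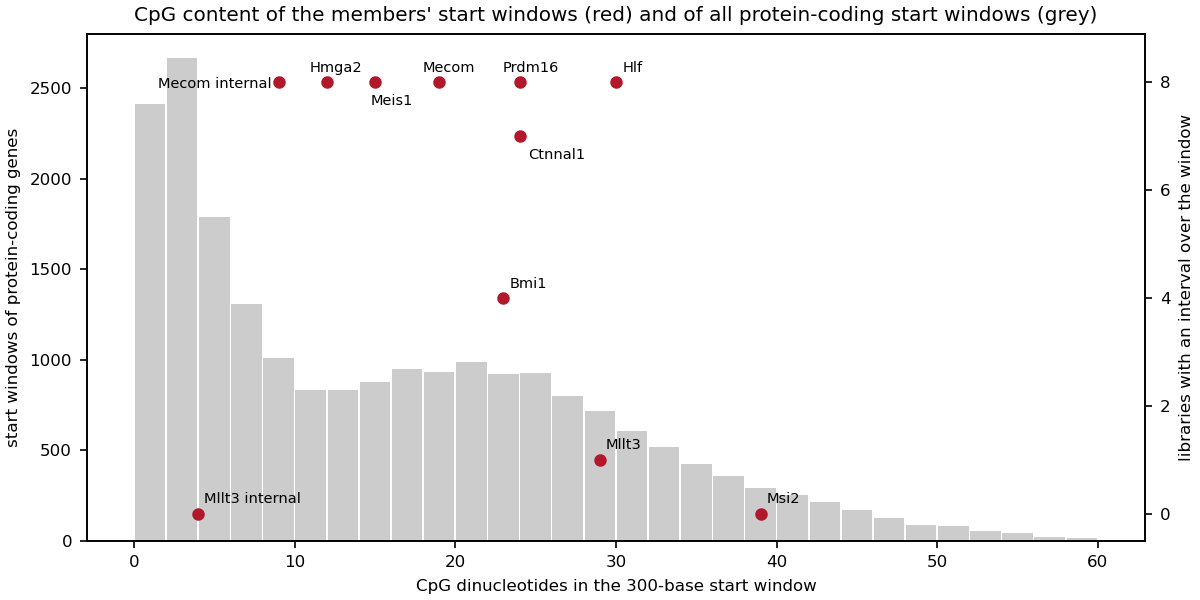
CpG dinucleotides per 300-base start window (x axis) against the number of libraries with an interval over that window (right axis, red points for the members' starts), over a histogram of CpG content in all 21263 protein-coding start windows (left axis, grey bars). Msi2 lies farthest right at 0 libraries, while Hmga2 and the internal start of Mecom lie near or below the median of 13 at 8 libraries; of the 3 Msi2 windows 1 is drawn.

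Genes that work with the members were also read from these tracks. Of 25 partners and pathway genes, 14 were called in all 8 libraries, 5 in none, and 15 to 19 in each library. Hoxa7, Hoxa9 and Hoxa10, which act with Meis1, were covered for 100% in every library, and Cdkn2a, the cell cycle inhibitor locus that Bmi1 represses, for 94.9% to 100%. Of the Polycomb genes that act with Bmi1, Cbx2, Cbx7 and Cbx8 were called in all 8 libraries, while Ring1, Rnf2 and Phc3 were called in none. Lin28b, which raises Hmga2 by blocking let-7, was covered for 13.5% to 23.2%, and Igf2bp2, a known target of Hmga2, for 18.3% to 29.5%. Kmt2a, a fusion partner of Mllt3 in human leukaemia, was covered for 4.37% to 10.9%, and Dot1l, a methyltransferase that Mllt3 recruits, had no interval. No gene of the list separated RH MET from RH VEH, RH VEH from WT VEH, or WT MET from WT VEH. The median over the list of the mean percent covered was 9.09%, against 12.8% for the members, 0% for all protein-coding genes and 14.1% for those called in at least 1 library.

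Of 23 close relatives of the members, 17 were called in all 8 libraries, 3 in none and 17 to 19 in each library, with a median cover of 20.4%. Msi1, a relative of Msi2 known from the nervous system, was covered for 81.5% to 97.6%, whereas Msi2 itself was at most at 1.18%. Hmga1, Mllt1 and Tef, relatives of Hmga2, Mllt3 and Hlf, had no interval in any library, which for Hmga1 and Tef is the reverse of the member. Ctnna1, a catenin related to Ctnnal1, was called in both RH MET libraries and neither RH VEH library. Of 30 other stem cell regulators and markers, 12 were called in all 8 libraries, 6 in none, and 16 to 20 in each library, with a median cover of 8.16%. Ldb1, a cofactor of blood transcription factors, had intervals in RH MET libraries and not in RH VEH libraries, Kit, the receptor used for the enrichment, in WT VEH and not RH VEH libraries, and Tek, a receptor of quiescent stem cells, in WT MET and not WT VEH libraries. The counts against all genes are those given above for each comparison.

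For each member, the protein-coding gene whose percent covered followed it most closely over the 8 libraries was found, as a description, by Pearson's r. Mllt3 was followed by Selp and Msi2 by Zfp346, both with r of 1.00 after rounding, and both had intervals in 2 libraries. For the members called more widely, r was between 0.94 and 0.97: Aptx for Meis1, Apba1 for Mecom, Luzp1 for Prdm16, Lrp1b for Hlf, She for Hmga2, Asxl3 for Bmi1 and Pak7 for Ctnnal1. Between 0 and 26 protein-coding genes per member passed an r of 0.95. The 8 points share the size of their library, and the genes named were picked from all protein-coding genes for this likeness.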

How the data were processed

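Intervals and interval summits of 8 H3K27me3 libraries were read from the deposited lists, on mm10 per the file headers. Each summit carries a score, its height, a whole number that the authors deposited with no unit named. Intervals were called per library by the authors, on a grid of 200 bp per the values. The tools bcl2fastq 2.20 and BWA 0.7.12 appear in the list of tools, per the submitters' processing notes. How intervals were called, whether depth was adjusted for and how the input was used were not given in the sources used here.

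Calls, percent covered, heights and comparisons were computed with Python 3.11.15 and NumPy 2.4.6, and drawn with Matplotlib 3.10.9. The overlap routine was tested on simulated data. Gene spans and start sequences came from RefSeq (GRCm38.p6), and a start window spans 250 bases before to 50 after a start. The members, gene lists, markers and alternatives were chosen with earlier results of these data known. The text names the 9 members, for each the gene most alike in percent covered, and list genes that separated 2 groups, at most 4 a list and direction; 1 such list gene is not reported here. Libraries were grouped by their labels, and no test was made. Exons and proteins were not used here.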

Additional observations from a re-analysis of the deposited data

How the results depend on the processing

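Calls were recounted for gene spans without flanks, with flanks of 10 kb, with at least 1000 bp of overlap, with intervals within 1000 bp joined, with intervals of height 15 or more, with 11620 intervals per library, and without each library in turn. Of the alternative counts of members, 130 stayed within 1.5 times the reported count and 6 did not. Most reported counts were 0 and so were most of their alternatives, so this tally says little about stability. The count called in RH MET and not RH VEH was 0 with height 15 or more and 1, Msi2, with equal numbers of intervals, against 2 as reported. The count called in RH MET and not WT MET was likewise 0 and 1, against 2. Leaving out a library can only keep or raise a count under this rule, so these counts could not fall, and they stayed at 2. The counts for RH VEH and not WT VEH and for WT MET and not WT VEH were 0 or 1. The 1 was Ctnnal1 without WT VEH 2. Of 341 alternative differences in percent covered, 42 had the opposite sign to the reported one, 40 of them where the groups overlapped as reported, such as Hlf in RH MET minus RH VEH at -0.311 points without RH VEH 1 and Bmi1 there at -0.363 when divided by the cover of all protein-coding spans. The other 2 were differences whose groups had not overlapped: Bmi1 in WT MET minus WT VEH was -0.829 points with the same division, and Meis1 in RH MET minus WT MET was -0.687 points with height 15 or more. The cause was not tested. No paired analysis was possible because no result comes from a test. Depth is unknown, a height has no stated unit, and 2 libraries per group leave every mean resting on 2 values.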
